A study of Mus musculus with 10 samples.

Results

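The genes described here are 10 chaperones, folding enzymes and stress sensors of the endoplasmic reticulum (ER). They are Hspa5, Hsp90b1, Calr, Canx, Pdia4, Dnajb9, Sdf2l1, Herpud1, Xbp1 and Ern1, and they were chosen by symbol, with all 10 found among the 26335 rows of the deposited expression table. RNA was sequenced from mSCLC-2405 cells, a mouse line derived from a primary small cell lung cancer, to compare control cultures with cultures given stiripentol. Stiripentol is an anti-epileptic drug that also inhibits lactate dehydrogenase. The 5 control libraries came from cells kept with DMSO, the solvent, and the 5 stiripentol libraries from cells kept with 250 µM stiripentol, in both groups for 48 h in RPMI medium with serum. All libraries therefore describe 1 cell line, and its genotype is not given in the sources used here. The methods define sample numbers as independent biological samples, in words written for mice, and do not say how cultures of this line map to the libraries, so that the p-values measure the spread between these libraries, which may be technical.

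Secreted and membrane proteins fold in the ER with the help of Hsp70 and Hsp90 chaperones, lectin chaperones that bind glycans, and protein disulfide isomerases. When unfolded proteins accumulate, the sensors IRE1 (encoded by Ern1), PERK (Eif2ak3) and ATF6 (Atf6) start the unfolded protein response. IRE1 splices the Xbp1 mRNA to give an active transcription factor and can also cleave other mRNAs, PERK slows translation and favours that of ATF4, and ATF6 is cut in the Golgi to free a transcription factor that induces ER chaperones.

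The ER stress response element (ERSE), bound by ATF6 with NF-Y, is the word CCAAT followed after 9 bases by CCACG, and the ERSE-II is ATTGG followed after 1 base by CCACG. Both were searched on both strands in the 250 bases before the RefSeq start of each gene (build GRCm38.p6), because they are known elements of ER chaperone promoters. An exact ERSE stood upstream of 4 of the 10 genes and an exact ERSE-II upstream of 1. Of all 32851 mouse promoter windows of the same length, 0.113% held an ERSE and 0.0304% an ERSE-II. These shares count windows and not genes. The elements were chosen because such promoters are known to hold them, so the counts are a description and not a test. The core of the XBP1 element, TGACGTGG, whose reverse complement holds the word CCACG, was in none of the 10 windows and in 0.563% of all windows. Stretches around the matches are shown 5′ to 3′ on the strand of the gene, with the words of the element in capitals, at chr2:34772020-34772049 (plus strand), chr10:86705521-86705668 (minus), chr8:84847063-84847175 (minus), chr11:50325788-50325900 (minus) and chr8:94386287-94386399 (plus).
Hspa5: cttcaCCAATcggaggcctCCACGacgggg
Hsp90b1: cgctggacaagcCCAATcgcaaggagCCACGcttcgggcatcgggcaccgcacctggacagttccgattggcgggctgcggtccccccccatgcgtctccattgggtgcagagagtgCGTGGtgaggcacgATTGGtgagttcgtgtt
Calr: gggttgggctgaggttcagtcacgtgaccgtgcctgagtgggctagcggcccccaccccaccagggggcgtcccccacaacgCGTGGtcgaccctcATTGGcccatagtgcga
Canx: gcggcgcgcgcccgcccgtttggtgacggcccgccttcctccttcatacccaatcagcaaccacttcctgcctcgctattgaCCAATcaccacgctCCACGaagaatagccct
Herpud1: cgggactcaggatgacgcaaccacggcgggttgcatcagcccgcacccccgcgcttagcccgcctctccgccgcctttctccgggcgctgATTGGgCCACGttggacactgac

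Hsp90b1 had 2 matches, beginning at positions −212 and −107 relative to the start, the nearer one on the opposite strand, and the single match of Calr was also on the opposite strand. The Hspa5 match lay at −65 to −47 from the RefSeq start, inside the first exon that GENCODE M21 gives the gene, and only 30 bases are therefore shown. For Pdia4, Dnajb9, Sdf2l1, Xbp1 and Ern1 the absence of a match says only that these exact letters are not in this window. The plot of motif positions shows the 6 matches along the windows.

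**Figure D1:**
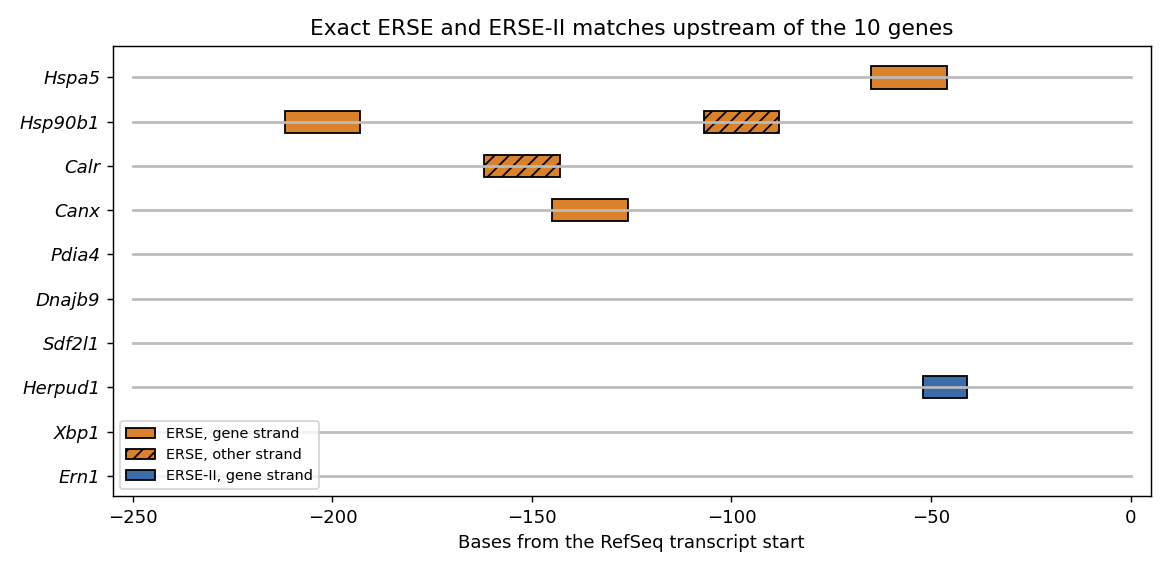
Exact matches to the ERSE (orange) and ERSE-II (blue) words in the 250 bases before the RefSeq start of the 10 genes, with the distance from the start in bases on the x axis and hatching for matches on the strand opposite to the gene. Hsp90b1 has 2 matches, Hspa5, Calr, Canx and Herpud1 have 1 each, and the other 5 genes have none.

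Values are the log2 CPM that the authors deposited, the log2 of the reads counted for a gene relative to the library total. Totals recovered from these values were 22375625 to 65299372 reads in control and 55015760 to 60670901 in stiripentol libraries, the lowest being control 5. In each group the libraries fell into 2 clusters, with controls 1 to 3 apart from controls 4 and 5, and stiripentol libraries 3 to 5 apart from stiripentol libraries 1 and 2. Correlations across genes were 0.983 to 0.997 within a cluster and 0.920 to 0.939 between the 2 clusters of a group, and neither the labels nor the correlations say which control cluster belongs with which stiripentol cluster. Control numbers here are those of the labels. A separate listing of the same values numbers the controls otherwise, with controls 4, 5, 1, 2 and 3 in the places 1 to 5 and the stiripentol libraries unchanged, so that there controls 4 and 5 share numbers with stiripentol libraries 1 and 2. Controls 1 to 3 were also normalized apart from the other 7 libraries, since a gene with no reads has the value −4.82 in them and −4.74 elsewhere. Of the neuroendocrine markers found, Ncam1 and Uchl1 passed the filter on low values, while Insm1, Chgb, Syp and Dll3 had at most 20 reads in any library. The macrophage marker Cd68 rose from 2.05–4.17 to 5.78–6.68 log2 CPM (change 3.21, SE 0.44, limma adjusted p = 0.000819). The other leukocyte markers found, Ptprc, Csf1r and Itgam, had at most 26 reads in any library. The summed level of the list, nearly all of it Cd68, was 4.30 to 18.3 CPM in controls and 55.3 to 103 CPM with stiripentol. Its part in the results was not tested. Fewer cells of a type and less RNA per cell cannot be told apart in such bulk samples, and levels are not compared between genes.

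Expression of 5 of the 10 genes rose with stiripentol, and none was called lower. Hspa5, Ern1 and Herpud1 rose 1.84-, 1.82- and 1.75-fold, Dnajb9 1.53-fold and Canx 1.37-fold. Genes were called at an adjusted p under 0.05 (limma with Benjamini-Hochberg adjustment over 12306 genes), at which 13.6% of all genes tested were called higher, 14.1% lower and 27.7% in either direction. The median change was 0.61 on the log2 scale over the 10 genes and −0.056 over all genes tested. Without adjustment, 7 of the 10 had p under 0.05, as did 41.7% of all genes tested, each of the 7 with the higher mean under stiripentol. Limma voom on the recovered reads called 5 higher and 0 lower, against 14.3% and 15.1% of all genes tested. With controls 4 and 5 alone as controls, only Canx, Herpud1 and Ern1 were called higher, and Xbp1 was called lower (−0.38, adjusted p = 0.0185). There 10.1% of all genes tested were called higher and 9.87% lower. Controls 4 and 5 share the normalization of the stiripentol libraries, and this fit also leaves out the other control cluster. With all libraries, the change of Hspa5 was 0.88 on the deposited values and 0.88 by voom. Voom used reads recovered from these same values and their totals, so it cannot show whether the scaling mattered. What moved the calls was not tested. In 4 genes (Hspa5, Canx, Dnajb9 and Herpud1) every stiripentol library was above every control, as it was in 13.0% of all genes tested.

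**Figure D2:**
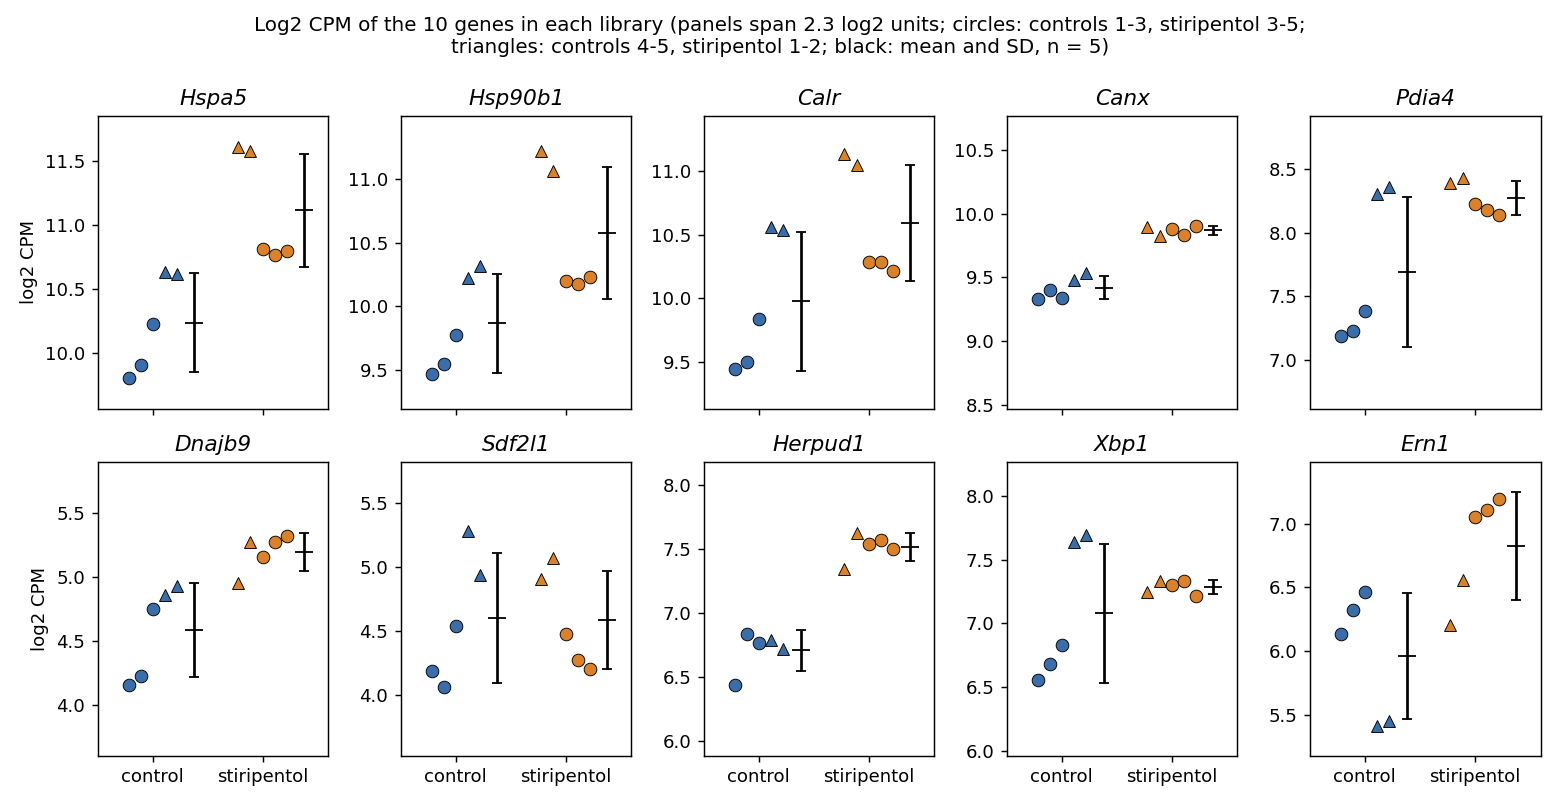
Log2 CPM (y axis, 2.3 log2 units in every panel) of each gene in the 5 control (blue) and 5 stiripentol (orange) libraries, in library order, with circles and triangles for the 2 library clusters of each group and the mean with its SD (n = 5) in black. Stiripentol values are above all control values in Hspa5, Canx, Dnajb9 and Herpud1. The 2 control clusters overlap in Herpud1. The clusters were found from these same values, and how often they overlap over all genes tested was not counted.

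Among the chaperones, Hspa5 encodes BiP, the Hsp70 of the ER lumen that also keeps the sensors inactive. Its level was 9.80, 9.90, 10.23, 10.63 and 10.62 log2 CPM in controls 1 to 5 and 11.62, 11.58, 10.82, 10.77 and 10.80 in stiripentol libraries 1 to 5. The groups did not overlap, but the lowest stiripentol library was only slightly above control 4, and stiripentol libraries 1 and 2 stood above the other 3. The change was 0.88 (SE 0.24, adjusted p = 0.0214), and the call was lost without control 1, control 2 or stiripentol 2 (adjusted p 0.0529, 0.0533 and 0.0527).

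Hsp90b1 encodes GRP94, the Hsp90 of the ER lumen. It was at 9.47, 9.55, 9.78, 10.22 and 10.32 log2 CPM in controls 1 to 5 and at 11.22, 11.06, 10.20, 10.17 and 10.23 in stiripentol libraries 1 to 5. Stiripentol libraries 3 to 5 lay at the level of controls 4 and 5, and the change of 0.71 (SE 0.26) did not pass the test (adjusted p = 0.0640), except without control 5 (adjusted p = 0.0486). The transcripts of Hsp90b1 share a stretch of 273 identical nucleotides with the pseudogene 1810014B01Rik on the opposite strand, to which 4868 reads were assigned over all libraries against 722068 for Hsp90b1, and reads there cannot be split with certainty.

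The lectin chaperones Calr (calreticulin, soluble) and Canx (calnexin, in the membrane) hold glycoproteins during folding. Canx was at 9.33, 9.41, 9.34, 9.48 and 9.54 log2 CPM in controls and at 9.90, 9.82, 9.88, 9.83 and 9.91 in stiripentol libraries. All 10 values of Canx stayed within a narrow band by group, and the change of 0.45 (SE 0.082, adjusted p = 0.00341) was called whichever library was left out. Calr was at 9.45, 9.50, 9.84, 10.56 and 10.54 log2 CPM in controls and at 11.13, 11.05, 10.28, 10.28 and 10.21 in stiripentol libraries, so that controls 4 and 5 were above stiripentol libraries 3 to 5. Its change of 0.61 (SE 0.28) did not pass the test (adjusted p = 0.126). These 2 partners thus had different spreads, with an SD of 0.089 between controls for Canx and 0.54 for Calr.

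Pdia4 encodes ERp72, a protein disulfide isomerase. It was at 7.19, 7.23, 7.39, 8.30 and 8.36 log2 CPM in controls and at 8.39, 8.43, 8.22, 8.17 and 8.14 in stiripentol libraries. The 5 stiripentol values sat at the level of controls 4 and 5 and above controls 1 to 3, and the change of 0.58 (SE 0.24) did not pass the test (adjusted p = 0.0966), except without control 4 or control 5 (adjusted p 0.0397 and 0.0326).

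Dnajb9 encodes ERdj4, an Hsp40 cochaperone of BiP that is induced by spliced Xbp1. It was at 4.16, 4.22, 4.75, 4.86 and 4.93 log2 CPM in controls and at 4.95, 5.28, 5.16, 5.27 and 5.32 in stiripentol libraries. Stiripentol 1 was only just above control 5, and the change of 0.61 (SE 0.18, adjusted p = 0.0288) lost its call without control 1 or 2 or without stiripentol 2, 4 or 5 (adjusted p 0.0559 to 0.0689). Sdf2l1, an ER protein that works with such cochaperones, was at 4.18, 4.06, 4.54, 5.28 and 4.94 in controls and at 4.90, 5.07, 4.47, 4.27 and 4.20 in stiripentol libraries. The groups of Sdf2l1 overlapped throughout, with a difference of −0.016 (SE 0.27, adjusted p = 0.968). The fewest reads of any of the 10 genes in a library were 683, for Dnajb9, so that counting error was small beside the spread between libraries.

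Herpud1 encodes HERP, a membrane protein of ER-associated degradation, the route by which misfolded proteins leave the ER for the proteasome. It was at 6.43, 6.84, 6.77, 6.79 and 6.72 log2 CPM in controls and at 7.34, 7.63, 7.54, 7.57 and 7.51 in stiripentol libraries. The lowest stiripentol value was well above the highest control value, control 1 lay below the other controls, and the change of 0.81 (SE 0.10, adjusted p = 0.000573) was called whichever library was left out. Herpud1 and Canx, the 2 genes with calls of this kind, were the 2 whose values differed least between the control clusters (0.075 and 0.15). That difference is part of the spread that enters the test, so the 2 statements are not independent.

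Of the signalling genes, Ern1 was at 6.14, 6.33, 6.47, 5.42 and 5.45 log2 CPM in controls and at 6.21, 6.56, 7.05, 7.11 and 7.19 in stiripentol libraries. In 4 of 5 stiripentol libraries it was above all controls, and stiripentol 1 was below controls 2 and 3. The change was 0.86 (SE 0.26, adjusted p = 0.0327), and the call was lost without control 1, 4 or 5 or stiripentol 3, 4 or 5 (adjusted p 0.0521 to 0.0660). Xbp1 was at 6.56, 6.68, 6.83, 7.64 and 7.69 log2 CPM in controls and at 7.25, 7.33, 7.30, 7.33 and 7.22 in stiripentol libraries. The stiripentol values of Xbp1 lay between the 2 control clusters with an SD of 0.052, against 0.54 in controls, and the change of 0.20 (SE 0.22) did not pass the test (adjusted p = 0.504). Values per gene add up the spliced and unspliced Xbp1 mRNA, so that splicing by IRE1 was not measured.

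Within the controls, 9 of the 10 genes were higher in controls 4 and 5 than in controls 1 to 3. The median difference was 0.66 over the 10 genes, compared with 0.017 over all genes tested. The share of all genes higher there was not counted, and the clusters were found from these same values. Pdia4 differed by 1.06, Xbp1 by 0.98 and Calr by 0.95 between the control clusters. Ern1 was the exception and was lower by 0.88 in controls 4 and 5. It was also lower by 0.74 in stiripentol libraries 1 and 2 than in stiripentol libraries 3 to 5, whereas Hspa5, Hsp90b1 and Calr were higher there by 0.80, 0.94 and 0.83. Hspa5 and Ern1 therefore moved in opposite directions between the clusters of both groups, although both rose with stiripentol.

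**Figure D3:**
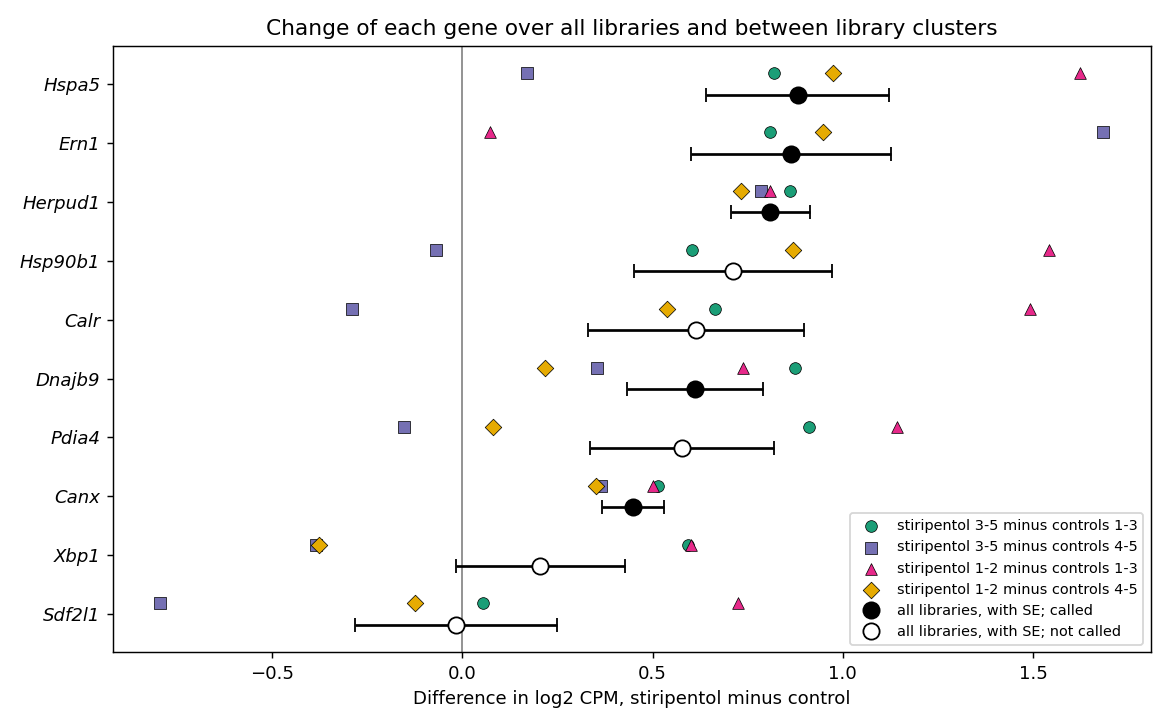
Difference in log2 CPM (x axis, stiripentol minus control) of each gene over all 5 and 5 libraries (circle with SE, filled where called) and in the 4 contrasts between 1 stiripentol and 1 control cluster (coloured symbols). Herpud1 and Canx keep nearly the same difference in all 4 contrasts, and Hspa5, Ern1 and Dnajb9 keep the sign, whereas Hsp90b1, Calr, Pdia4, Xbp1 and Sdf2l1 cross zero.

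Because the labels do not match the clusters, each gene was also described by the 4 contrasts of a stiripentol with a control cluster. The 5 genes called higher had a higher mean under stiripentol in all 4 contrasts, as 19.8% of all genes tested did. Herpud1 was higher by 0.73 to 0.86 and Canx by 0.35 to 0.51. Hspa5 was higher by only 0.17 in stiripentol libraries 3 to 5 than in controls 4 and 5, and by 1.62 in stiripentol libraries 1 and 2 than in controls 1 to 3. Ern1 had the opposite order, with 1.68 in the former contrast and 0.072 in the latter. In the former contrast Hsp90b1, Calr, Pdia4, Xbp1 and Sdf2l1 differed by −0.068, −0.29, −0.15, −0.38 and −0.79. The median over all genes tested was 0.047 and 0.084 in the contrasts of stiripentol libraries 3 to 5 with controls 4 and 5 and with controls 1 to 3, and −0.25 in both contrasts with stiripentol libraries 1 and 2.

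With controls 4 and 5 matched to stiripentol libraries 1 and 2, as in the numbering of the separate listing, the change differed between the 2 matched pairs of clusters in 3 genes, by the interaction term of limma. The change of Xbp1 was 0.59 in the pair of controls 1 to 3 with stiripentol libraries 3 to 5 and −0.38 in the other pair (difference −0.97, SE 0.12, adjusted p = 5.0e-05). For Pdia4 these values were 0.91 and 0.080 (difference −0.83, SE 0.11, adjusted p = 6.3e-05), and for Dnajb9 0.87 and 0.22 (difference −0.66, SE 0.23, adjusted p = 0.0279). Such a difference was called in 63.3% of all genes tested, so that 3 of 10 is below the background. These p-values measure the spread within a cluster, whose libraries may not be separate cultures. The clusters were also found from these same values.

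The 10 genes did not share 1 profile over the libraries. By the root mean square distance between profiles centred on their mean over the 10 libraries, the nearest genes to Hspa5 were Mrrf (0.0656 log2 units), Fbxo7 (0.0689), Prpf40b (0.0735), Dnajc4 (0.0776) and Mbp (0.0884), against a median distance of 0.744. Hsp90b1 ranked 14 and Calr 94 among 12258 genes by this distance (0.109 and 0.173), and Ern1 ranked 6334 (0.757). This is a description over 10 libraries that share the group and cluster differences above.

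The other genes of the pathway were taken from lists of known components. Beside the counts of each list stand the shares of all genes tested, 13.6% called higher and 14.1% lower. With controls 4 and 5 alone as controls these shares were 10.1% and 9.87%. Of 24 ER chaperones and Hsp70 cochaperones tested, 7 rose and 2 fell, with a median change of 0.21. Besides Hspa5 and Dnajb9, these were Cdnf (1.24), Dnajc1 (0.97), Hyou1 (0.66), Dnajb11 (0.55) and Sec63 (0.43). Cdnf was near the filter on low values, at −0.97 to 0.37 log2 CPM in controls and at most 152 reads in any library. Hyou1 encodes the nucleotide exchange factor GRP170, and Dnajb11 the BiP cochaperone ERdj3, which was at 6.12 to 6.33 log2 CPM in controls and 6.73 to 6.87 with stiripentol (SE 0.084, adjusted p = 0.00151). The 2 that fell were Dnajc10, the disulfide reductase ERdj5 (−0.91, SE 0.27, adjusted p = 0.0314), and Hspa13 (−0.39). The calls were lost without any of controls 1 to 3 or stiripentol 1 or 2 for Hyou1 (adjusted p 0.0771 to 0.104), for Hspa13 without these or stiripentol 4 (0.0547 to 0.0806) and for Dnajc10 without any control or stiripentol 1 or 2 (0.0524 to 0.0668). With controls 4 and 5 alone as controls, 4 of this list rose and 1 fell.

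Of 11 lectin chaperones and glycan-trimming enzymes tested, 4 rose and 1 fell (median change 0.19). Beside Canx these were Ganab (0.47), the catalytic subunit of glucosidase II, the cargo receptor Lman1 (0.46) and Uggt1 (0.40), which returns unfolded glycoproteins to the calnexin cycle. Mogs, glucosidase I, fell by 0.57 (SE 0.16, adjusted p = 0.0255). Of 18 disulfide isomerases and oxidases, 3 rose and 2 fell (median 0.075), near the 13.6% and 14.1% of all genes tested. Tmx2 rose by 1.11 (SE 0.15, adjusted p = 0.000888), Pdia5 by 0.94 and Erp44, which retains oxidases in the early secretory pathway, by 0.65, whereas Txndc5 fell by 0.58 and Erp29 by 0.52. The calls of Uggt1 (without control 1, 2, 4 or 5 or stiripentol 1 or 2), Erp44 (control 1, 2 or 3 or stiripentol 1 or 2), Mogs (control 2 or 4 or stiripentol 2) and Txndc5 (stiripentol 2) were lost with a library left out, at adjusted p of at most 0.0740. With controls 4 and 5 alone as controls, 2 of the lectin list rose and none fell, and 1 of the disulfide list rose and 1 fell.

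In ER-associated degradation, 7 of 27 genes rose and none was called lower (median 0.24; 10 rose and 1 fell at an unadjusted p under 0.05, and voom called 7 and 0). Beside Herpud1, Selenos rose by 0.91 (SE 0.15, adjusted p = 0.00225), Aup1 by 0.73, Ufd1 by 0.57, Sel1l by 0.51, Herpud2 by 0.50 and Ubxn4 by 0.49. Sel1l is the partner of the ubiquitin ligase HRD1, and Ufd1 a cofactor of the p97 ATPase that draws proteins out of the membrane. The calls of Herpud2 and Ubxn4 were lost without any of controls 1 to 3 or stiripentol 1 or 2, and that of Sel1l without control 1, 2 or 5 or stiripentol 3, 4 or 5 (adjusted p 0.0513 to 0.0886 over the 3 genes).

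Of 15 sensors and transcription factors tested, 6 rose and 1 fell (median 0.17). Ddit3, which encodes the stress factor CHOP, was at 4.94 to 6.00 log2 CPM in controls and at 7.29 to 7.51 with stiripentol (change 1.95, SE 0.17, adjusted p = 9.64e-05). Atf4 rose by 1.08 (SE 0.15, adjusted p = 0.000819), from 8.62–9.28 to 9.83–10.24, with no overlap of the groups. Beside Ern1, the sensor Atf6 rose by 0.66 (SE 0.15, adjusted p = 0.0106), the proteasome regulator Nfe2l1 by 0.66, and the IRE1 adaptor Traf2 by 0.60, the last being lost without control 1, 3 or 5 or stiripentol 1 or 2 (adjusted p 0.0542 to 0.0709). Mbtps1, the site-1 protease that cuts ATF6, fell by 0.45 (SE 0.11, adjusted p = 0.0133). Changes not called were 0.17 for the sensor Eif2ak3, 0.092 for Atf6b, −0.31 for Mbtps2, −0.027 for Creb3, −0.30 for Creb3l1, 0.16 for Creb3l2 and 0.17 for the Xbp1 ligase Rtcb. Ern2, Creb3l3 and Creb3l4 were too low to be tested. Against controls 4 and 5 alone, 5 of the list rose and 2 fell.

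The targets of the PERK branch, induced through ATF4 and CHOP, showed the highest median of the lists plotted. Of 15 tested, 7 rose and none was called lower, with a median change of 0.93 (7 rose and 1 fell at an unadjusted p under 0.05, and voom called 7 and 1). They were Atf3 (2.06), Ddit3, Ppp1r15a (1.86), Asns (1.59), Nupr1 (1.30), Trib3 (1.17) and Atf4. Ppp1r15a, the phosphatase subunit that reverses the translational arrest, was at 5.89 to 6.85 log2 CPM in controls and 8.22 to 8.49 with stiripentol (SE 0.17, adjusted p = 0.000123). Each of these 7 was called whichever library was left out, and each had its stiripentol values above all controls. Chac1, another ATF4 target, differed by 0.35 (SE 0.45, adjusted p = 0.573), with 4.71 to 6.83 log2 CPM over the stiripentol libraries. ATF4 is also raised by amino acid shortage and mitochondrial stress, so that these genes do not report on the ER alone.

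Of 38 genes of protein translocation, signal peptide cleavage and glycosylation, 14 rose and 3 fell (median 0.22). The largest rises were Krtcap2 (1.15) and Stt3a (0.73), both of the oligosaccharyltransferase, and Sec11c (1.05), a signal peptidase subunit that was at 3.94 to 4.33 log2 CPM in controls and 5.03 to 5.19 with stiripentol (SE 0.12, adjusted p = 0.000322). Spcs3 (−0.82), of the same peptidase, Tusc3 (−0.59) and Tram2 (−0.42) fell. Of the other rises, that of Sec11a was lost without any 1 library, Rpn2 without any but control 1 or 3, Ssr3 without any control or stiripentol 1 or 2, and Srpr without any of controls 1 to 3 or stiripentol 1 or 2 (adjusted p up to 0.0957, 0.0804, 0.0977 and 0.0740). Against controls 4 and 5 alone, 8 of this list rose and 1 fell. Of 20 genes of COPII coats, which form the vesicles that leave the ER, 2 rose (Sec24a by 0.81 and Sar1b by 0.55) and 1 fell (Preb by 0.42), with a median of 0.13. Both counts were below the shares of all genes tested (13.6% and 14.1%). The calls of Tram2 and Preb were lost without any of controls 1 to 3, and that of Preb also without stiripentol 2 (adjusted p 0.0507 to 0.0654), and with controls 4 and 5 alone as controls 1 COPII gene rose and 0 fell.

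**Figure D4:**
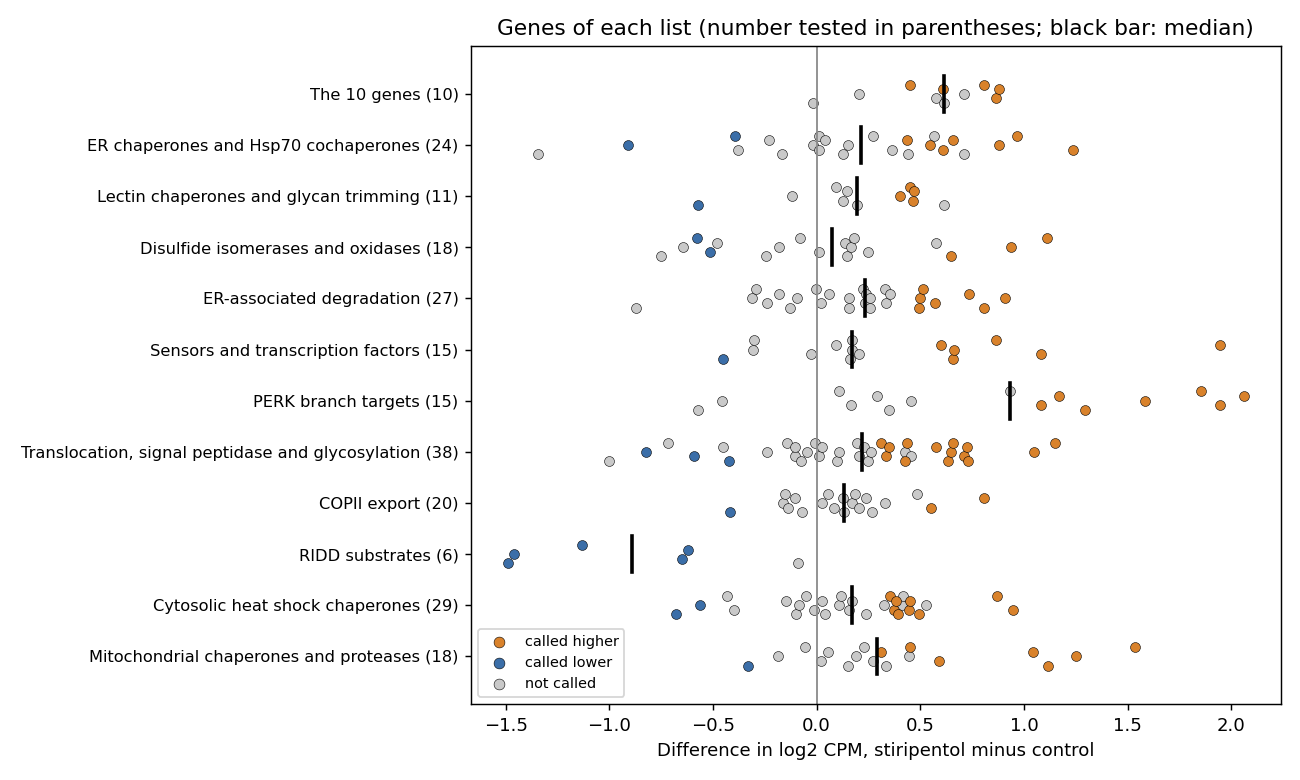
Difference in log2 CPM (x axis, stiripentol minus control) of every tested gene of each list, with genes called higher in orange, called lower in blue and not called in grey, and the list median as a black bar. The PERK branch targets have the highest median (0.93) and the substrates of IRE1-dependent decay the lowest (−0.89).

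Of 6 mRNAs known as substrates of IRE1-dependent decay, 5 fell and none was called higher (0 at an unadjusted p under 0.05 and 0 by voom). They were Pdgfrb (−1.49), Col6a1 (−1.46), Scara3 (−1.13), Sparc (−0.65) and Bloc1s1 (−0.62), and the median of the 6 was −0.89. In these 5 every stiripentol library was below every control, as in 14.3% of all genes tested, and the mean was lower in all 4 cluster contrasts, as in 22.5%. Bloc1s1, the substrate most often used to follow this decay, was at 4.38 to 5.09 log2 CPM in controls and 4.06 to 4.26 with stiripentol (SE 0.14, adjusted p = 0.0109). Hgsnat differed by −0.089 (SE 0.18, adjusted p = 0.733). Pdgfrb is also a fibroblast marker, and Col6a1 and Sparc encode matrix proteins that fibroblasts express. Of 6 fibroblast markers tested, 4 fell (Col3a1, Col1a2, Pdgfrb and Pdgfra), the summed level of the list was 404 to 696 CPM in controls and 152 to 185 CPM with stiripentol, and the defining markers Thy1 and Lum had at most 3 reads in any library. The part of these markers in the fall of the substrates was not tested.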

How the data were processed

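RNA-seq of 5 control and 5 stiripentol libraries was used, grouped by the sample titles. The table deposited by the authors holds log2 CPM values, made with GENAVi per their methods after adding a prior in proportion to library size. The submitters' processing notes name mm10; the aligner, counter and annotation are not given in the sources used here. The methods name a Lexogen QuantSeq 3′ mRNA kit, whereas the labels name TruSeq total RNA, so values were not compared between genes. The authors' columns of group means, t test p, q-value, fold change and difference were not used. Whole reads recovered from the log2 CPM were whole for 100% of values below 10000 reads (tolerance 0.05), and depth limits counting error only.

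Groups were compared on the deposited log2 values with limma 3.58.1 (R 4.3.3; lmFit, eBayes with trend, two-sided) for 12306 genes (mean log2 CPM above 0), with Benjamini-Hochberg adjustment. Interaction terms used library clusters found by average linkage on 1 − Pearson correlation. The scripts were tested on simulated data. Named genes are the 10 genes, up to 3 called genes each way per list, all sensors and factors, and the 5 nearest to Hspa5; Sec63, Dnajb11, Hyou1, Ufd1, Sel1l, Herpud2, Ubxn4, Uggt1, Nupr1, Trib3, Asns, Chac1, Sec11a, Rpn2, Ssr3, Srpr, Hspe1, St13, Stip1 and the marker genes were named with their values known. The 10 genes and the lists were chosen with earlier results of these data known. Promoters are RefSeq windows of GRCm38.p6 (all 10 genes matched), and copies were sought with blastn 2.17.0 at 95% identity over 100 nucleotides. Alternatives were a replicate block, each library left out, cluster terms and pairs, scalings, filters, log2(CPM + 1) and voom. Neither the replicate numbers of the labels nor those of a separate listing of the values by the study met the rule for pairing, a correlation of deviations above 0.1 in every pair. Protein sequences were not used here, and 2 marker genes are not reported here.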

Additional observations from a re-analysis of the deposited data

Results flagged for a closer look

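The change with stiripentol differed between the 2 matched pairs of library clusters for Xbp1 (difference −0.97), Pdia4 (−0.83) and Dnajb9 (−0.66). The test was the interaction term of limma, with controls 4 and 5 matched to stiripentol libraries 1 and 2. The labels do not settle this matching. Such a difference was called in 63.3% of all genes tested, a larger share than among the genes described here. It therefore does not set these genes apart. With the clusters matched the other way, the share of all genes tested was 71.9%. Control 1 lay apart from the other 4 controls for Herpud1, at 6.43 log2 CPM, by Dixon's test on the gap to its neighbour. Among 20 groups of 5 values this was 1 such sample, and chance alone gives about 1. Control 5 had 22375625 reads, far below the other controls by the same test.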

How the results depend on the processing

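All 10 genes were well above the depth limit. Leaving out 1 library at a time gave 2389 to 3320 genes called and 2 to 6 of the 10 genes called higher, against 3414 and 5. Of all genes tested, 9.90% to 13.9% were called higher there. With the replicate number of the labels as a block, 2082 genes and 3 of the 10 (Canx, Dnajb9 and Herpud1) were called. All 3 were higher there, as were 8.29% of all genes tested. Same-numbered libraries did not deviate together (correlations −0.24 to 0.06), so that no pairing was inferred. With the control numbers of the separate listing as the block, chosen after seeing the data, 4249 genes were called. There 8 of the 10 were called higher, Hsp90b1, Calr and Pdia4 being added, as were 16.7% of all genes tested. Correlations were 0.084 to 0.22, 1 of 5 pairs being below 0.1, and 2 of 5 controls correlated best with their own number. With a term for the library cluster, 6244 genes and 95 list genes were called, and 8 of the 10 genes were higher (23.6% of all genes). In controls 1 to 3 with stiripentol 3 to 5 these numbers were 7959, 124 and 9 (37.7% of all genes higher). In controls 4 and 5 with stiripentol 1 and 2, 8884 genes and 115 list genes were called. There 6 of the 10 were called higher and Xbp1 alone (1 gene, −0.38) lower, with 25.7% of all genes higher and 46.5% lower. An alternative chosen after seeing the data, the clusters matched the other way, gave 5340 genes. The next 2 pairs of clusters were also chosen after seeing the data. Controls 4 and 5 with stiripentol 3 to 5 gave 8490 genes and 132 list genes. There 5 of the 10 genes were higher and 4 lower, with 37.5% of all genes higher and 31.5% lower. Controls 1 to 3 with stiripentol 1 and 2 gave 9021 genes, 127 list genes and 9 of the 10 higher (28.1% of all genes higher). Libraries of 1 normalization set called 3 of the 10 genes higher and 1 lower (Xbp1, −0.38), with 41 list genes. Of all genes tested, 10.1% were called higher and 9.87% lower there. With 1 mean per group and cluster, limma called 0 genes, 0 of the 10 and 0 list genes, with 1116 genes and 1 of the 10 at an unadjusted p under 0.05; only 2 values per group enter this fit. A minimum absolute log2 change of 1 left 1294 genes, 14 list genes and 0 of the 10. Cluster interactions were called for 5 of the 10 genes with median centring (63.6% of all genes) and for 7 with the clusters matched the other way (71.9% of all genes, a share near 7 of 10). Reversed signs were −0.068 for Hsp90b1, −0.29 for Calr, −0.15 for Pdia4 and −0.38 for Xbp1 in controls 4 and 5 with stiripentol 3 to 5, and −0.059 for Pdia4 in 1 normalization set. Sdf2l1 had −0.15 to 0.15 with 1 library left out, 0.055 in controls 1 to 3 with stiripentol 3 to 5, 0.066 with median centring, 0.052 with quantile normalization, 0.014 with voom and 0.73 in controls 1 to 3 with stiripentol 1 and 2. Ern1 lost its call with no filter (adjusted p = 0.0586) and Hsp90b1 gained one with quantile normalization (adjusted p = 0.0303). The cause was not tested.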

Other observations

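Chaperones outside the ER also changed. Of all genes tested, 13.6% were called higher and 14.1% lower, and 10.1% and 9.87% with controls 4 and 5 alone as controls. Of 18 mitochondrial chaperones and proteases tested, 7 rose and 1 fell, with a median change of 0.29. The iron-sulfur cochaperone Hscb rose by 1.54 (SE 0.26, adjusted p = 0.00233), the mitochondrial Hsp70 Hspa9 by 1.25 (SE 0.23, adjusted p = 0.00312), from 9.13–10.06 to 10.67–11.26 log2 CPM, and the matrix protease Lonp1 by 1.12 (SE 0.22, adjusted p = 0.00544), while Spg7 fell by 0.33, a call that was lost without any 1 of 8 libraries, all but control 3 and stiripentol 5 (adjusted p up to 0.0707). Of 29 cytosolic heat shock chaperones and their regulators tested, 9 rose and 2 fell, with a median of 0.17. Hspa1b rose by 0.95, Hspa14 by 0.87 and the factor Hsf2 by 0.50, while Dnajc7 fell by 0.68 and Dnaja1 by 0.56. The call of the mitochondrial Hspe1 was lost without control 3, 4 or 5 or stiripentol 1 or 2 (adjusted p up to 0.0671). That of St13 was lost without any of controls 1 to 3 or stiripentol 1 or 2 (adjusted p up to 0.0903). For Stip1 it was lost without any control or stiripentol 3, 4 or 5 (adjusted p up to 0.103). With controls 4 and 5 alone as controls, 10 of the mitochondrial list and 3 of the cytosolic list rose, and 1 and 0 fell. Adjusted p-values are those of limma over all genes tested, and the lists were not compared with each other by a test.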
